A study of Mus musculus with 5 samples.

Results

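The genes described here regulate the epithelial-to-mesenchymal transition (EMT), the change by which cells of an epithelium lose their junctions and become motile. They are Snai1, Snai2, Snai3, Zeb1, Zeb2 and Twist1, which induce EMT, and Grhl2, Ovol2, Esrp1 and Esrp2, which maintain the epithelial state. They were chosen by name, and each of the 10 names matched 1 row of the 49671 genes in the deposited count table. RNA was sequenced from single mouse embryos at the onset of gastrulation (E6.75 in the study) of 2 genotypes on a mixed strain background. SO+ embryos (n = 2) had the genotype Sox2Cre-/-; Oct4 fl/+ and kept Oct4. SO- embryos (n = 3) were Sox2Cre+/-; Oct4 fl/-, so that Cre removed the remaining Oct4 allele. Each library was made from the dissected epiblast and visceral endoderm (VE) of 1 embryo, by SmartSeq2 from polyadenylated RNA. Sox2Cre acts in the epiblast, whereas the VE, which is an extra-embryonic epithelium, is not its target.

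In the gastrulating embryo, EMT takes place at the primitive streak, where epiblast cells leave the epithelium to form mesoderm and endoderm. SNAIL, ZEB and TWIST proteins can drive EMT in 1 tissue or another, SNAIL and ZEB by binding E-box sequences and repressing Cdh1, the gene for E-cadherin. GRHL2 activates epithelial genes, both GRHL2 and OVOL2 repress Zeb genes, and the ESRP proteins bind RNA and keep splicing in its epithelial pattern. SNAI1 is required for EMT in the mouse streak.

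Total counts were 27538119 and 27047148 in the SO+ libraries and between 1117566 and 4191498 in the SO- libraries. Levels are given as CPM (the count per 1e+06 counts of the TMM-scaled library), and the floor set by 3 counts (counting error only) was 0.109 and 0.111 CPM for the SO+ libraries but between 0.723 and 2.68 CPM for the SO- libraries. Depth and the second sequencing index followed genotype, and neither can be told apart from it. Values per embryo are given in the order SO+ embryos 1 and 2 (the SO+ pair), then SO- embryos 1, 2 and 3. Pou5f1, which encodes Oct4, had a log2 fold change of -4.43 (SE 0.33, adjusted p = 3.94e-05, edgeR). Each embryo is its own animal, and less RNA per cell cannot be told apart from fewer cells of a type in these whole-tissue samples.

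None of the regulators passed the test between genotypes. Of the 10 genes, 7 had enough counts to enter edgeR's quasi-likelihood test, and 0 of the 7 had an adjusted p under 0.05, where 2.35% of all 12067 genes tested did. At an unadjusted p under 0.05 the count was 1, Esrp1, but the share of all genes at that threshold was not computed. The threshold is a loose one: Gata6, with an unadjusted p of 0.0492, had an adjusted p of 0.361 (edgeR). DESeq2 and limma-voom also called 0. The log2 fold change (SO- over SO+) was above 0 for 5 of the 7 and below 0 for 2, with a median of 0.24 beside a median of 0.00 over all genes tested. Values did not overlap between genotypes for 2 of the 7, Esrp1 and Ovol2, where 29.3% of all genes tested had no overlap. The 95% intervals lay within 1 log2 unit on either side of 0 for 4 genes (Snai1, Grhl2, Esrp1 and Esrp2) and extended further for Snai3, Zeb2 and Ovol2.

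**Figure D1:**
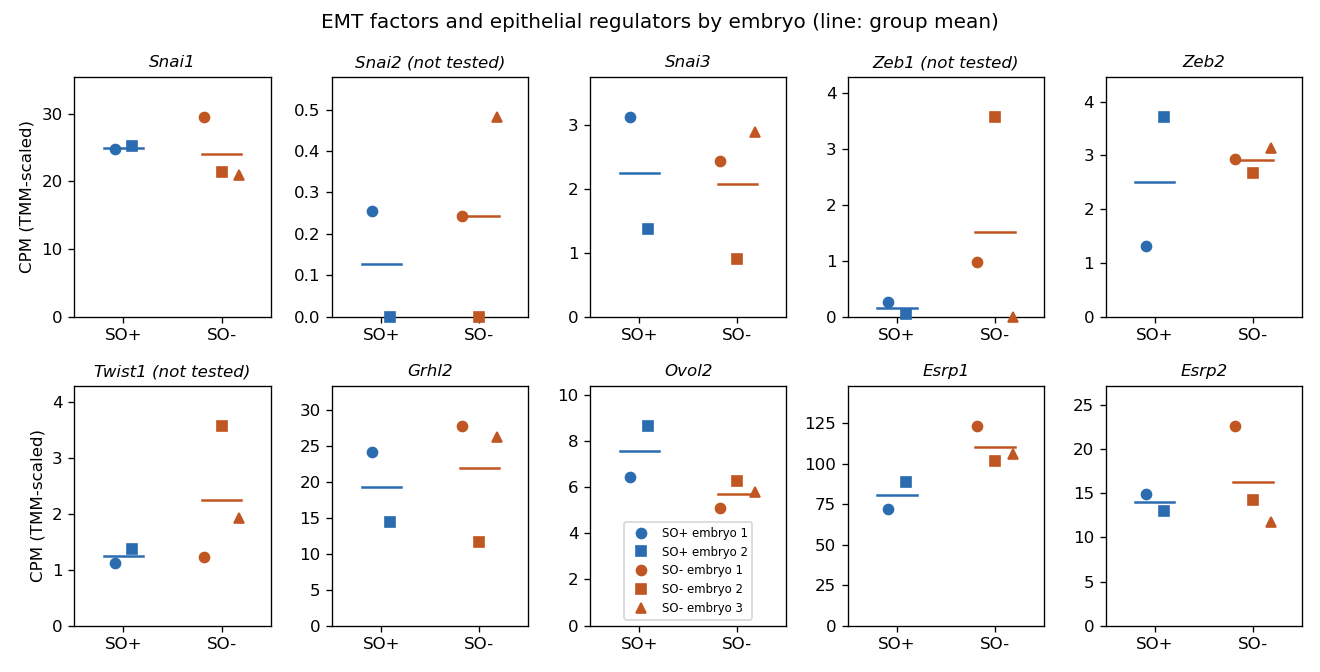
CPM of each EMT regulator in each embryo (linear axis from 0, a separate scale for each gene; blue, SO+; orange, SO-; line, group mean). Esrp1 was above both SO+ embryos in all 3 SO- embryos and Ovol2 below both, and the other 8 genes overlapped between genotypes.

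Snai1 (ENSMUSG00000042821; chromosome 2 of GRCm38, 167538195 to 167542814, plus strand) encodes the repressor of Cdh1 that drives EMT at the primitive streak. It had 24.7 and 25.2 CPM in SO+ embryos 1 and 2, and 29.5, 21.4 and 21.0 CPM in SO- embryos 1, 2 and 3. The SO- embryos lay on both sides of the SO+ pair, which were nearly equal. The means were 24.9 ± 0.32 CPM (SD, n = 2) and 24.0 ± 4.78 CPM (SD, n = 3), and the log2 fold change was -0.04 (SE 0.22, 95% interval -0.52 to 0.45, adjusted p = 0.977, edgeR). On the linear scale that interval runs from 0.696 to 1.37 times the SO+ level, so a change of the size of a doubling lies outside it. The sign changed without SO- embryo 2 (0.01) and without SO- embryo 3 (0.07).

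The start of Snai1 was covered by the RefSeq promoter table. The 250 bases before it hold 1 copy of the E-box CACCTG (searched on both strands), the sequence that SNAIL and ZEB zinc fingers bind, at bases 126 to 121 before the start site. It is shown because Snai1 was the most abundant of the inducers here and because SNAI1 is known to act on its own promoter. The capitals mark the E-box, and 17.2% of 32851 mouse promoter windows of this length hold one.

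Snai1 promoter (GRCm38.p6, chr2:167537945-167538194, plus strand): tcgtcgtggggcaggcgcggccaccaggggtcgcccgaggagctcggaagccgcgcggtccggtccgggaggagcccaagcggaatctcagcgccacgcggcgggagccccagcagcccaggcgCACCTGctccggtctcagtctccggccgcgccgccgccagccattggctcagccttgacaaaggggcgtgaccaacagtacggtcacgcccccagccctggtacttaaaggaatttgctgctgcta

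The octamer ATGCAAAT, which Oct4 and other POU proteins bind, was in none of the 7 RefSeq windows that cover 4 of the 10 genes (Snai1, Zeb2, Twist1 and Ovol2), and 1.60% of all windows hold it on either strand. No match says only that these letters are not in these windows.

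Snai3 (chromosome 8, 122454208 to 122460733, minus strand) encodes the SNAIL protein least studied in gastrulation. It had 3.12 and 1.37 CPM in the SO+ pair against 2.44, 0.892 and 2.89 CPM in SO- embryos 1, 2 and 3, the value in SO- embryo 2 being a single count. Both genotypes thus spanned a similar range. The log2 fold change was 0.04 (SE 0.66, 95% interval -1.39 to 1.48, adjusted p = 0.993, edgeR), and its sign turned without SO+ embryo 2 (-0.43), SO- embryo 1 (-0.03) or SO- embryo 3 (-0.23). Snai2, the SNAIL gene of neural crest and of mesoderm in other vertebrates, was near the limit of detection. It had 7 and 0 counts in the SO+ pair and 1, 0 and 2 counts in the SO- embryos, and was not tested. Summed over a genotype, its level was 0.128 CPM in SO+ (exact Poisson 95% interval 0.0516 to 0.265) and 0.320 CPM in SO- (0.0660 to 0.935). The intervals cover counting error only and overlap, so no difference was detectable at this depth.

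Zeb2 (chromosome 2, 44983632 to 45117395, minus strand) encodes a zinc finger and homeodomain repressor of Cdh1. It had 1.31 and 3.71 CPM in the SO+ pair against 2.92, 2.68 and 3.13 CPM in SO- embryos. All 3 SO- values fell between the SO+ values, but they rest on 12, 3 and 13 counts. The value of SO- embryo 2 is at its floor of 3 counts, so the closeness of the SO- values carries a large counting error. The log2 fold change was 0.24 (SE 0.64, 95% interval -1.14 to 1.61, adjusted p = 0.936, edgeR), and it depended on the SO+ pair: it was -0.33 without SO+ embryo 1 and 1.16 without SO+ embryo 2.

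Zeb1, its paralogue and the ZEB gene most used as an EMT marker in carcinoma, had 7 and 1 counts in the SO+ pair and 4, 4 and 0 counts in the SO- embryos. These are 0.254 and 0.037 CPM against 0.974, 3.57 and 0 CPM. The floor of SO- embryo 3, 0.723 CPM, is above both SO+ values, so its 0 cannot be ranked against them. The summed levels were 0.147 CPM in SO+ (exact Poisson 95% interval 0.0634 to 0.289) and 0.854 CPM in SO- (0.369 to 1.68). These counting intervals do not overlap, but the SO- embryos differed among themselves by more than the genotypes did, and each sum is of 8 counts. Without the filter on low counts edgeR gave Zeb1 a log2 fold change of 3.03 (SE 1.92, adjusted p = 0.696), and DESeq2 gave 3.17 (adjusted p = 0.489).

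Twist1 encodes a bHLH factor that acts in cranial mesoderm and neural crest after the stage sampled. It had 31 and 37 counts in the SO+ embryos (1.13 and 1.37 CPM) and 5, 4 and 8 counts in the SO- embryos (1.22, 3.57 and 1.93 CPM). SO- embryo 1 lay between the SO+ embryos and the other two above them, and the filter on low counts left the gene untested. Its summed levels were 1.25 CPM in SO+ (exact Poisson 95% interval 0.969 to 1.58) and 1.81 CPM in SO- (1.06 to 2.90), and in the fit without the filter the log2 fold change was 0.65 (adjusted p = 0.886, edgeR).

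The ZEB genes are the classical targets of the miR-200 family, microRNAs of epithelial cells that bind ZEB transcripts through their seed, bases 2 to 8. The family is shown because ZEB transcripts were among the scarcest of the regulators per length here, and its 5 members carry 2 seeds. The mature sequences, from RefSeq (GRCm38.p6), have the seed in capitals.

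mmu-miR-141-3p: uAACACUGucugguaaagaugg

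mmu-miR-200a-3p: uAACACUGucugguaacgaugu

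mmu-miR-200b-3p: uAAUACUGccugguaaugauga

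mmu-miR-200c-3p: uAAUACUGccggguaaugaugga

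mmu-miR-429-3p: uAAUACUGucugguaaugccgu

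The first seed is shared by miR-141 and miR-200a and the second by the other three. Matches to either seed in the longest annotated 3′ UTR numbered 9 for Zeb1 (2401 bases) and 9 for Zeb2 (4941 bases). Of UTRs of like length (0.8 to 1.25 times), 0.0313% of 3196 and 0.0822% of 1216 held as many. These sets include the gene itself, and in each set the only UTR with as many was its own. Snai2 had 2 matches, Snai1 and Grhl2 had 1 each, and the other 5 genes had none, while 26.9% of 21173 mouse 3′ UTRs had at least 1. The match nearest the Zeb2 stop codon, in the last exon at chr2:44988350-44988372 of GRCm38 on the minus strand, is printed with its match in capitals.

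Zeb2 site: attttgtaCAGTGTTaaggccta

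The count table holds a row for each of the 5 family members, all with 0 counts in every embryo, and libraries of polyadenylated RNA do not capture mature microRNAs. The level of the family was therefore not measured, and a match is a description of the sequence only.

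Grhl2 (chromosome 15, 37233036 to 37363569, plus strand) encodes a grainyhead factor that activates Cdh1 and other junction genes. It had 24.1 and 14.5 CPM in the SO+ pair against 27.8, 11.6 and 26.3 CPM in SO- embryos 1, 2 and 3. The SO+ values lay within the SO- range, whose lowest value came from the smallest library. The log2 fold change was 0.27 (SE 0.32, 95% interval -0.41 to 0.96, adjusted p = 0.798, edgeR), and without SO+ embryo 2 it was -0.04.

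Ovol2 (chromosome 2, 144305175 to 144332146, minus strand) encodes a zinc finger repressor of Zeb1 and of other mesenchymal genes. It had 6.46 and 8.65 CPM in the SO+ pair against 5.12, 6.25 and 5.79 CPM in SO- embryos. All 3 SO- values were below both SO+ values, the nearest pair being 6.25 and 6.46 CPM. The SO- values rest on 21, 7 and 24 counts. In SO- embryo 2 a single count is 0.892 CPM, so 1 more count there would have made the groups overlap. The means were 7.55 ± 1.55 CPM (SD, n = 2) and 5.72 ± 0.57 CPM (SD, n = 3), and the log2 fold change was -0.42 (SE 0.40, 95% interval -1.29 to 0.44, adjusted p = 0.736, edgeR). Leaving out each embryo in turn gave -0.63 to -0.20, the latter without SO+ embryo 2.

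Esrp1 (ENSMUSG00000040728; chromosome 4, 11331933 to 11386783, minus strand), the more abundant of the epithelial splicing regulators, had the lowest p among the 7 genes tested. It had 72.0 and 88.8 CPM in the SO+ pair against 123.3, 101.7 and 106.1 CPM in SO- embryos 1, 2 and 3. Every SO- embryo was above both SO+ embryos. The means were 80.4 ± 11.9 CPM (SD, n = 2) and 110.4 ± 11.4 CPM (SD, n = 3). The fold fitted by edgeR was 1.38 (95% interval 1.11 to 1.72). The log2 fold change was 0.47 (SE 0.15, 95% interval 0.15 to 0.78, unadjusted p = 0.00701), and with an adjusted p of 0.143 from edgeR it did not pass over all genes. Without SO+ embryo 2 it was 0.62 and passed (adjusted p = 0.0437, edgeR), and without SO+ embryo 1 it was 0.32 (adjusted p = 0.651, edgeR).

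Esrp2 (chromosome 8, 106130319 to 106136974, minus strand), whose protein shares the RNA targets of ESRP1, had 14.9 and 13.1 CPM in the SO+ pair against 22.7, 14.3 and 11.8 CPM in SO- embryos. The SO- embryos lay above, between and below the SO+ embryos. The log2 fold change was 0.24 (SE 0.31, 95% interval -0.43 to 0.91, adjusted p = 0.828, edgeR), and without SO- embryo 1 it was -0.15. Exons of Esrp2 overlap those of other genes over 338 bases, and these genes had 1471 counts summed over embryos. How reads from the overlap were counted is not given in the sources used here. Zeb1, Zeb2, Grhl2, Ovol2 and Esrp1 also have overlaps, of 127 to 662 bases, with genes of at most 25 summed counts.

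**Figure D2:**
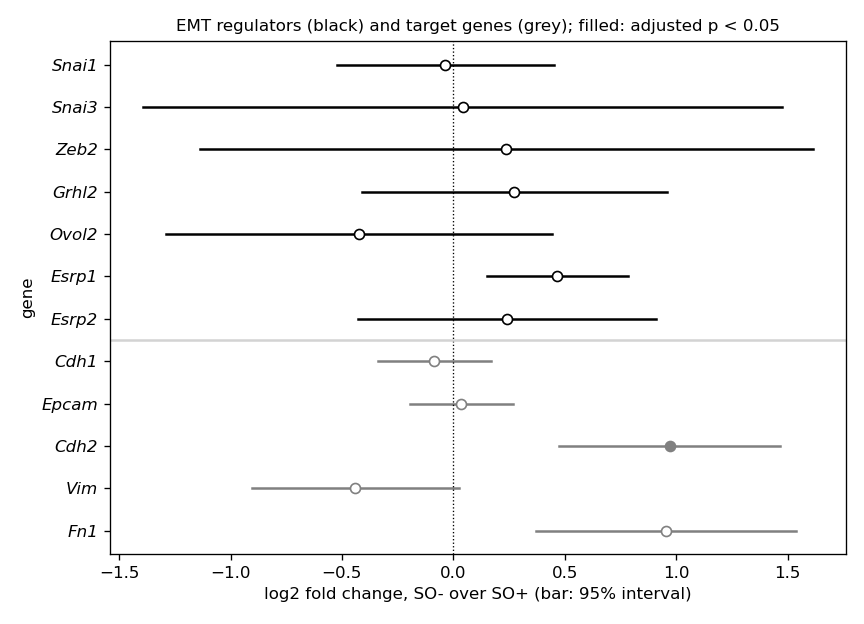
Log2 fold change (x axis, SO- over SO+) with its 95% interval from edgeR for the 7 regulators tested (black) and for 5 junction and matrix genes (grey), where a filled point marks an adjusted p under 0.05. Of the regulators, Esrp1 alone had an interval that excludes 0, at an adjusted p of 0.143 (edgeR), and Cdh2 was the only filled point.

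Like Esrp1, most VE markers were higher on average in SO- embryos. Of 20 VE marker genes tested, 18 were higher, where 49.7% of all genes tested were higher, and 1 passed the test (Sox17). The median log2 fold change of the 20 was 0.38, and none was at 0. The summed level of the 20 was 5358 and 5718 CPM in the SO+ pair against 7765, 7885 and 5153 CPM in SO- embryos 1, 2 and 3. In SO- embryo 3 this sum was below both SO+ embryos, and its Esrp1 level was above both. The summed level of markers of the extra-embryonic ectoderm, a tissue removed in dissection, was 92.2 and 133 CPM against 215, 261 and 240 CPM. That sum was above both SO+ embryos in every SO- embryo, as Esrp1 was. Of 12 epiblast markers, 9 were lower on average and 5 passed, all lower, where 2.35% of all genes tested passed. They were Utf1, Dnmt3b, L1td1, Slc7a3 and Pou5f1, the last being the gene that Cre deletes. The summed level of the 12, Pou5f1 included, was 7210 and 5833 CPM against 3156, 2647 and 3908 CPM. Pou5f1 alone had 920 and 437 CPM against 28.0, 12.5 and 44.1 CPM. The part of these differences in the Esrp1 values was not tested.

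Levels relative to Cdh1 and Epcam use the same counts again, so they are not a separate observation. Per 100 counts of Cdh1 there were 19.2 and 20.2 counts of Esrp1 in the SO+ pair against 35.4, 27.2 and 24.9 in SO- embryos. Per 100 counts of Epcam, a second epithelial surface gene, there were 16.9 and 20.8 against 29.2, 25.3 and 21.9. Neither ratio overlapped between genotypes, as the CPM of Esrp1 did not, and the log2 fold changes of Cdh1 and Epcam were only -0.09 and 0.04. The share of all genes without overlap in such a ratio was not computed. Ovol2 per 100 counts of Cdh1 was 1.73 and 1.97 in the SO+ pair against 1.47, 1.67 and 1.36 in SO- embryos, without overlap. The value of 1.67 rests on 7 counts of Ovol2, and per 100 counts of Epcam the genotypes overlapped. Snai1 per 100 counts of Cdh1 was 6.61 and 5.73 in the SO+ pair against 8.47, 5.73 and 4.92 in SO- embryos, and Grhl2 and Esrp2 overlapped by either measure. These ratios need no scaling between libraries, and they carry the changes of Cdh1 or Epcam as well.

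**Figure D3:**
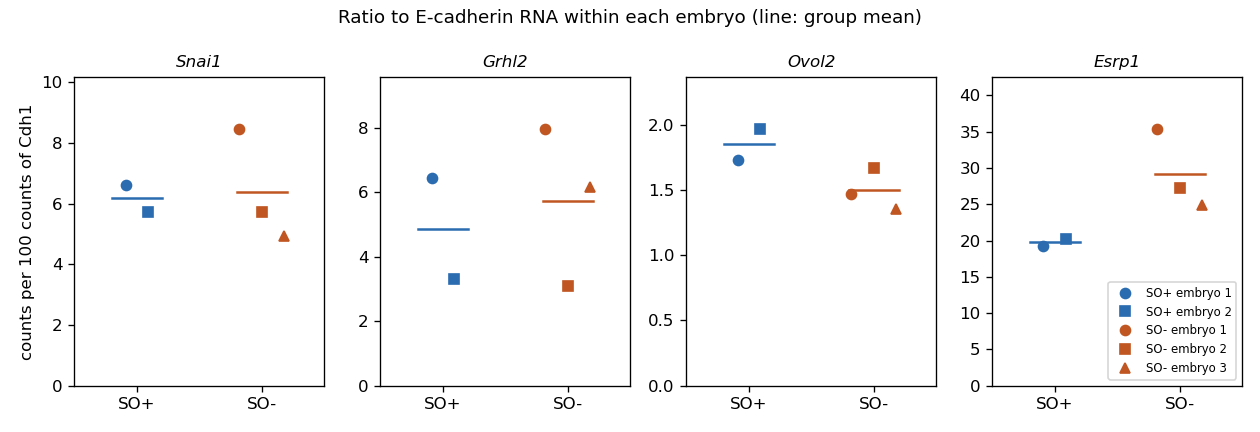
Counts of Snai1, Grhl2, Ovol2 and Esrp1 per 100 counts of Cdh1 in the same embryo (linear axis from 0; blue, SO+; orange, SO-; line, group mean). Esrp1 ran from 24.9 to 35.4 in SO- embryos against 19.2 and 20.2 in SO+ embryos, while Snai1 and Grhl2 overlapped.

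Levels of different genes were compared as FPKM, the CPM divided by the exon length of the gene in kilobases. Snai1 and Esrp1 led in every embryo. Snai1 had 15.2 and 15.5 FPKM in the SO+ pair and 18.2, 13.2 and 12.9 FPKM in the SO- embryos, and Esrp1 had 11.4 and 14.1 FPKM against 19.6, 16.1 and 16.8 FPKM. Snai1 ranked first and Esrp1 second in both SO+ embryos, and the order was the reverse in all 3 SO- embryos. Over all embryos the ranges of these 2 genes overlapped, and their order rested on the length used. With the longest transcript as the length, Esrp1 was above Snai1 in every embryo, at 18.6 to 31.9 FPKM against 12.9 to 18.2 FPKM.

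Below them came Esrp2 (2.72 to 5.22 FPKM), Ovol2 (2.42 to 4.09 FPKM), Grhl2 (1.35 to 3.22 FPKM), Snai3 (0.548 to 1.92 FPKM) and Twist1 (0.691 to 2.19 FPKM), each overlapping the next. Snai1 was above Esrp2, and Twist1 above Zeb2 (0.0655 to 0.186 FPKM), without overlap. Zeb2, Snai2 and Zeb1 formed the bottom of the order and overlapped each other. For comparison, Cdh1 had 76.1 to 96.0 FPKM and Epcam 183 to 221 FPKM. Within the SNAIL family Snai1 contributed 86.5% to 96.0% of the summed FPKM per embryo, and within the ESRP pair Esrp1 contributed 76.9% and 82.4% in the SO+ pair and 78.9%, 83.1% and 86.1% in the SO- embryos. The summed FPKM of the 4 epithelial genes was 1.15 and 1.31 times that of the 6 inducers in the SO+ pair and 1.46, 1.44 and 1.55 times in SO- embryos. The groups did not overlap in this ratio, which Snai1 and Esrp1 dominate, and Esrp1 alone already had no overlap. In CPM, 29.3% of all genes tested had no overlap, and no such share was computed for ratios. With the longest transcript as the length it was 1.76 and 2.00 for the SO+ pair and 2.24, 2.18 and 2.42 for SO- embryos, again without overlap. The exons of Zeb2 add up to 19942 bases, and its longest transcript is 9124 bases.

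**Figure D4:**
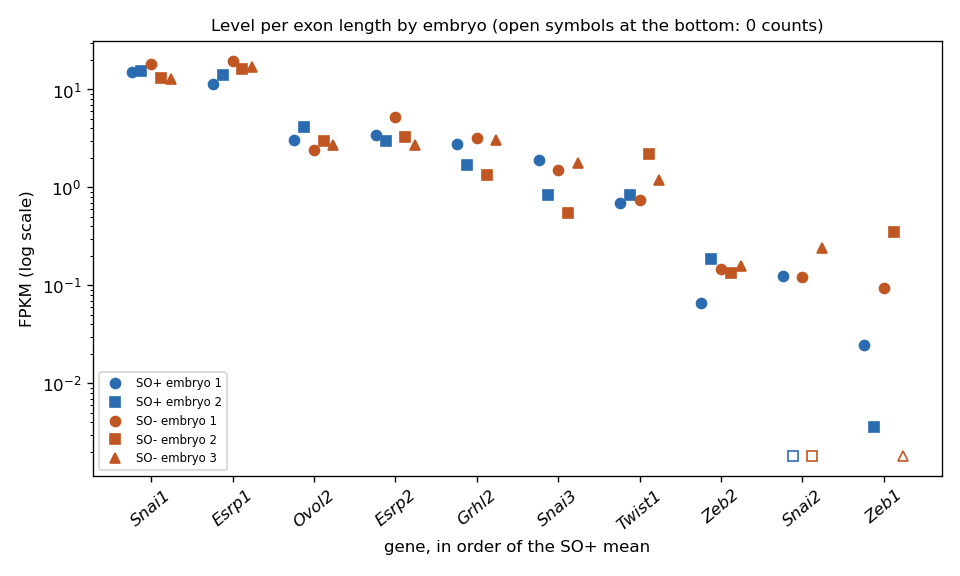
FPKM of each regulator in each embryo (log scale; genes in order of the SO+ mean; blue, SO+; orange, SO-; open symbols at the bottom mark 0 counts). Snai1 and Esrp1 lay above 11 FPKM in every embryo, and Zeb2 lay at or below 0.186 FPKM.

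The remaining EMT machinery was described by 7 lists of 156 genes, of which 128 were tested. Of these 128, 6 passed edgeR's test (adjusted p under 0.05), all higher in SO- embryos, where 1.42% of all genes tested passed in that direction. The median log2 fold change was 0.07. The count was 18 without SO+ embryo 2 and 0 without SO- embryo 1 or SO- embryo 2.

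Among 15 tested transcription factors that induce EMT or specify the streak and mesoderm, 10 were higher, 5 lower and 1 passed, with a median log2 fold change of 0.06. The gene that passed was Hand1, a bHLH factor of extra-embryonic mesoderm and trophoblast. It had 1.09 and 2.75 CPM in the SO+ pair against 13.6, 24.1 and 12.1 CPM in SO- embryos. It rose by 3.04 on the log2 scale (SE 0.52, adjusted p = 0.00754, edgeR), and every SO- embryo was above both SO+ embryos. Of 8 tested markers of the extra-embryonic ectoderm, the trophoblast tissue removed in dissection, 5 were higher on average in SO- embryos, and their part in the Hand1 values was not tested. The streak gene T (0.63, adjusted p = 0.344, edgeR), Eomes (0.05, adjusted p = 0.938, edgeR) and Mesp1 (-0.61, adjusted p = 0.501, edgeR), which lies upstream of mesodermal EMT, did not pass. Mesp1 was at 20.9 and 63.5 CPM in the SO+ embryos and between 27.2 and 28.0 CPM in all 3 SO- embryos, so its spread lay in the SO+ pair. Tcf3, which encodes a bHLH partner of TWIST1 that can itself repress Cdh1, had a log2 fold change of 0.03 (adjusted p = 0.957, edgeR). Twist2 had no more than 3 counts in any embryo and was not tested.

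Other regulators of the epithelial state were mostly higher, without any passing. Of 11 tested, 10 were higher and 1 lower, where 49.7% of all genes tested were higher. None of the 11 passed edgeR's test, 6 did not overlap between genotypes, where 29.3% of all genes tested had no overlap, and the median log2 fold change was 0.51. Grhl3, a paralogue of Grhl2 that acts in surface ectoderm, had 0.871 and 1.89 CPM in the SO+ pair against 5.85, 3.57 and 4.34 CPM in SO- embryos. The genotypes did not overlap, and the log2 fold change was 1.77 (SE 0.63, 95% interval 0.42 to 3.13, adjusted p = 0.202, edgeR). Grhl1, with 0.51 (adjusted p = 0.887, edgeR), overlapped, and so did Foxa2, a factor of endoderm, with 0.60 (adjusted p = 0.322, edgeR). Ovol1, the paralogue of Ovol2, was too low to test, at 1.85 and 4.12 CPM in the SO+ pair against 0.974, 1.79 and 0.723 CPM in SO- embryos. The list includes Foxa1, Foxa2 and Hnf4a, which VE cells also express.

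The targets on which these factors converge lay on both sides of 0. Of 34 epithelial targets 23 were higher and 11 lower, with a median of 0.09, and 3 passed. Krt8 and Krt18, the keratin pair of simple epithelia and also expressed by VE, rose by 0.85 (SE 0.14, adjusted p = 0.00520, edgeR) and 0.90 (SE 0.13, adjusted p = 0.00246, edgeR), and Jup, which encodes plakoglobin, rose by 0.63 (SE 0.14, adjusted p = 0.0277, edgeR). Cdh1 had 374 and 439 CPM in the SO+ pair against 348, 374 and 427 CPM in SO- embryos. The groups overlapped and the log2 fold change was -0.09 (95% interval -0.34 to 0.17, adjusted p = 0.844, edgeR). For Epcam it was 0.04 (adjusted p = 0.941, edgeR).

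Of 17 mesenchymal targets 11 were higher and 6 lower, with a median of 0.36, and 1 passed. Cdh2, which encodes N-cadherin, rose by 0.97 (SE 0.23, adjusted p = 0.0445, edgeR), from 29.9 and 53.7 CPM to 83.6, 95.5 and 70.4 CPM. Fn1, the gene for fibronectin and also a product of VE, had 0.95 (adjusted p = 0.0964, edgeR). Vim, the vimentin gene induced in most EMTs, had 33.6 and 27.3 CPM in the SO+ pair against 20.2, 25.0 and 23.2 CPM in SO- embryos, without overlap. Its log2 fold change was -0.44 (95% interval -0.90 to 0.02, adjusted p = 0.398, edgeR), opposite in sign to Cdh2 and Fn1.

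Of 14 tested transcripts whose splicing ESRP proteins control, 7 were higher and 7 lower, with a median of 0.02, and 0 passed edgeR's test. Fgfr2, whose epithelial and mesenchymal isoforms are the best known ESRP switch, had 4.17 and 7.61 CPM in the SO+ pair against 14.4, 4.46 and 18.3 CPM in SO- embryos. SO- embryo 2 lay between the SO+ embryos and the other two above them, and the log2 fold change was 1.18 (95% interval 0.18 to 2.19, adjusted p = 0.258, edgeR). Ctnnd1, the p120-catenin gene and another ESRP target, had 0.31 (adjusted p = 0.576, edgeR). Counts per gene do not separate isoforms, so splicing itself was not measured.

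The co-repressors recruited by SNAIL and ZEB proteins were all measurable. Of 17 tested, 6 were higher and 11 lower, with a median of -0.14, and 0 passed edgeR's test. Ctbp2, which ZEB proteins recruit, had -0.27 (adjusted p = 0.537, edgeR), and Hdac1, a deacetylase of SNAIL complexes, had -0.29 (adjusted p = 0.347, edgeR). Of 21 tested genes for SNAIL protein stability and for the effectors of gastrulation EMT, 10 were higher and 11 lower, with a median of -0.03, and 1 passed. This was Crb2, an apical transmembrane protein needed for cells to leave the streak, with 13.8 and 15.4 CPM in the SO+ pair against 44.8, 59.8 and 27.2 CPM in SO- embryos. It rose by 1.53 (SE 0.28, adjusted p = 0.0118, edgeR), and all 3 SO- embryos were above both SO+ embryos. Epb41l5, which promotes the loss of E-cadherin at the mouse streak, had -0.18 (adjusted p = 0.717, edgeR).

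**Figure D5:**
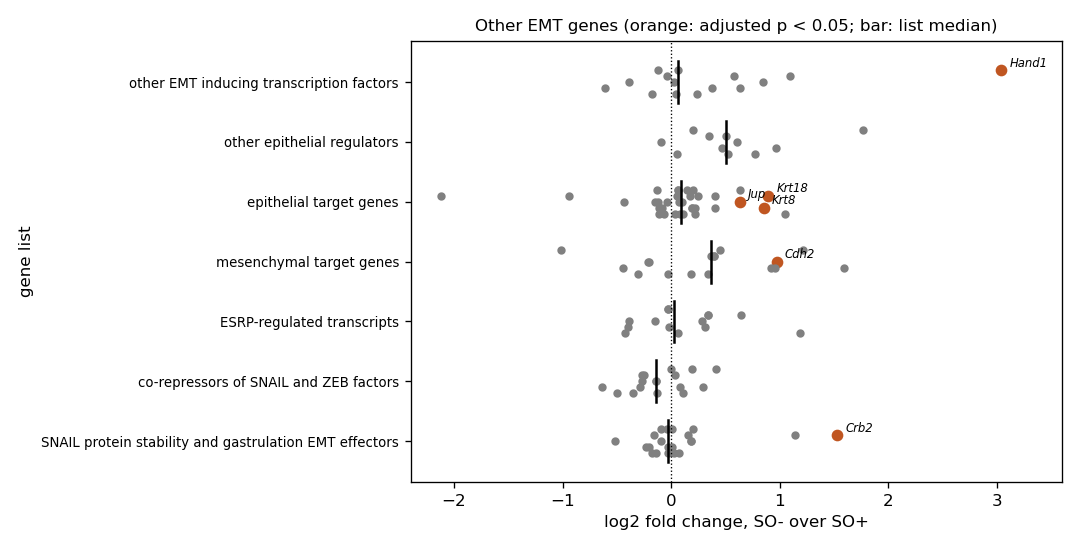
Log2 fold change (x axis, SO- over SO+) of each tested gene in the 7 lists of other EMT genes, where the bar is the list median and orange marks an adjusted p under 0.05 in edgeR. Hand1, Krt8, Krt18, Jup, Cdh2 and Crb2 are the 6 orange genes, and the medians ran from -0.14 to 0.51.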

How the data were processed

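RNA was sequenced from single SO+ (n = 2) and SO- (n = 3) embryos, grouped by the genotype in the labels. The authors aligned reads to GRCm38 with STAR, counted them per gene with HTSeq-count and deposited the counts without normalization. Whether strand was used is not given in the sources used here. Counts were analysed in R 4.3.3 by the quasi-likelihood F test of edgeR 4.0.16, with genotype as the single term, after filterByExpr and TMM scaling, and p-values were adjusted by the Benjamini-Hochberg method over the 12067 genes tested (threshold 0.05). Each SE was obtained from F and the log2 fold change. CPM and FPKM use the scaled library size, and FPKM the union of exons in GENCODE M21, which matched 99.5% of genes. Alternatives were DESeq2 1.42.0, limma-voom (limma 3.58.1), other scalings and filters, a robust spread, a minimum fold change, a replicate block and each embryo left out. The test was first tested on simulated data. The genes described and the lists were chosen with earlier results of these data known. Every listed gene that passed was named, with a set of well-known EMT genes. The promoter and microRNA sequences were chosen after the values were seen. Oct4 binding data were not used here. The result of a single marker gene is not reported here.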

Additional observations from a re-analysis of the deposited data

How the results depend on the processing

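No regulator passed the test under DESeq2, limma-voom, RLE, upper quartile or library size scaling, no filter, at least 10 counts in every embryo, or a robust spread, and leaving out each embryo gave 0 to 1 (Esrp1, without SO+ embryo 2). The fold change of Esrp1 lay between 0.32 and 0.62 on the log2 scale over 14 alternatives, with adjusted p from 0.0300 to 0.651 in the tools named. Same-numbered embryos of the 2 genotypes share only a number (correlation of their deviations -0.0087 and 0.12 over genes). With that number as a replicate block, 929 genes, 27 of the other EMT genes and 1 regulator (Esrp1, 0.52, adjusted p = 0.0300, edgeR) passed, Snai1 was at 0.0569 and Snai3 at -0.42. Snai3 was also below 0 with DESeq2 (-0.0115) and without the filter (-0.0016). Of all genes, 283 passed in the main test, 91 in limma-voom and 185 with a minimum fold change of 1.2, and 3 of the other EMT genes passed in limma-voom. With each embryo left out, 35 to 573 genes and 0 to 18 other EMT genes passed. In these fits the log2 fold change ran from -0.248 to 0.0725 for Snai1, from -0.43 to 0.73 for Snai3, from -0.33 to 1.16 for Zeb2, from -0.0424 to 0.683 for Grhl2 and from -0.15 to 0.46 for Esrp2. The cause was not tested. Ovol2 kept its sign in 13 alternatives. With the longest transcript as the length, 9 of 20 mean levels moved by more than the spread. Depth limits Snai2, Zeb1 and Twist1, which had at most 8 counts in any SO- embryo.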

Other observations

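Markers of tissues that were meant to be absent or that neighbour the streak were also measured. Of 8 tested markers of the extra-embryonic ectoderm, which had been removed by dissection, 5 were higher on average in SO- embryos. Dusp9 was among them and rose by 1.70 on the log2 scale (adjusted p = 0.00125, edgeR). Their summed level over the list was 92.2 and 133 CPM in the SO+ pair against 215, 261 and 240 CPM in SO- embryos. Elf5, a defining gene of that tissue, was too low to test. It had 3 and 5 counts in the SO+ pair (0.109 and 0.186 CPM) against 2, 0 and 11 in SO- embryos (0.487, 0 and 2.65 CPM).

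Of 11 tested markers of nascent mesoderm, 7 were higher on average and 2 passed, Fgf8 and Hand1. Tbx6 counts were 0 and 46 for the SO+ pair (0 and 1.71 CPM) and 1, 0 and 0 for SO- embryos (0.244, 0 and 0 CPM). Of 10 tested markers of parietal endoderm, which also expresses Snai1, 8 were higher on average and 0 passed edgeR's test, and Thbd had 2, 0, 6, 0 and 0 counts in the 5 embryos. Of 20 genes of decidua and maternal blood, 8 were at 0 in every embryo, the haemoglobin genes Hbb-bs and Hbb-bt among them, and the 3 that were tested were higher on average in SO- embryos without passing. The part of any of these in the levels of the EMT regulators was not tested.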
